A study of Mus musculus with 18 samples.

Results

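The splicing factor genes described here are the 65 genes whose symbol in the array's annotation table begins with Srsf, Sfrs, Hnrnp, Snrp, Sf3a, Sf3b, Prpf or U2af, out of 20672 genes measured. They are represented by 186 of 38089 probe sets, and each gene was followed through the probe set with the highest mean over all 18 arrays, so the probe sets were chosen by their own mean signal, which is given only as a description. The choice was closest for Pnisr, with 10.575 for the probe set used and 10.57 for the next brightest, and it was clear for Hnrnpl, with 10.86 and 4.42. The 65 genes comprised 20 hnRNP genes, 13 PRPF genes, 12 SR protein genes, 9 Sm and other snRNP genes, 8 SF3 genes and 3 U2AF genes. Of these, 46 had more than 1 probe set and 19 had a single one.

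RNA came from 3 groups of mice. The first group held spleens with a DN1/DN2 T-cell leukemia (T-ALL), named for the earliest CD4- CD8- thymocyte stages, from mice with the Idh2R140Q mutation and the NHD13 (NUP98-HOXD13 fusion) transgene, on 9 arrays. The second held thymi with cortical, CD4+CD8+ T-ALL from SCL/LMO1 mice, on 6 arrays, and the third held normal thymi of wild-type mice, on 3 arrays. Ages and the promoters that drive the transgenes are not given in the sources used here, and spleen goes with the Idh2R140Q/NHD13 genotype, so that tissue, leukemia subtype and genotype cannot be told apart. In the Idh2R140Q/NHD13 group, mice 546 and 550 gave nearly equal arrays, with a root mean square difference of 0.212 on the log2 scale over all probe sets, against 0.445 or more in 152 other pairs. Over the members' probe sets the difference was 0.257 for this pair and at least 0.227 in the others, so on these genes the pair was not the closest. The 2 arrays were averaged and counted as 1 sample, which left 8 Idh2R140Q/NHD13, 6 SCL/LMO1 and 3 wild-type samples. SCL/LMO1 mice 7114/1 and 7114/3 share a number in their labels, whose meaning is not given. All values are log2 signals on the scale deposited by the authors, and differences are log2 fold changes.

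Introns are removed from transcripts by the spliceosome, which is assembled stepwise from the U1, U2, U4, U5 and U6 small nuclear ribonucleoproteins (snRNPs). Sm proteins form a ring on the snRNAs, U2AF and SF3 proteins recognise the end of the intron and the branch site, and PRPF proteins build and rearrange the catalytic core. SR proteins mostly promote and hnRNP proteins often repress the use of an exon, and mutations of several of these factors recur in human myeloid leukemia.

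The markers of the labelled cells differed widely between the groups. The mean signal of 14 T-lineage genes lay between 6.39 and 9.73 in Idh2R140Q/NHD13 spleens, between 11.72 and 12.03 in SCL/LMO1 thymi and between 10.9 and 11.7 in wild-type thymi, and 12 of the 14 were lower in Idh2R140Q/NHD13 spleens than in SCL/LMO1 thymi. The mean of 14 erythroid genes lay between 9.37 and 12.9 in Idh2R140Q/NHD13 spleens, between 5.83 and 6.11 in SCL/LMO1 thymi and between 5.82 and 6.05 in wild-type thymi, with 13 of 14 higher in the first than in the second. The mean of 10 neutrophil genes ranged over 6.5 to 12.25, 5.58 to 9.47 and 5.61 to 6.42 in the same order of groups. The mean of 10 double-positive thymocyte genes ranged over 5.8 to 8.42, 9.84 to 11.39 and 11.11 to 11.78, and that of 9 early progenitor genes over 8.9 to 9.79, 6.04 to 7.08 and 6.86 to 7.41. Macrophage genes ranged over 9.55 to 11.18, 8.68 to 9.28 and 9.43 to 10.2, B cell genes over 5.02 to 5.92, 5.0 to 7.11 and 6.48 to 7.68, and thymic epithelium genes over 5.32 to 6.33, 5.62 to 8.38 and 8.54 to 9.25. Stroma and endothelium genes ranged over 6.57 to 8.32, 7.11 to 8.2 and 7.31 to 8.4, and handling stress genes over 7.55 to 9.16, 7.18 to 8.19 and 8.51 to 8.55. Their part in the results below was not tested, and in bulk tissue fewer cells of a type and less RNA per cell cannot be told apart.

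The mean signal of the splicing factor genes over the 18 arrays ranged from 4.18 for Srsf12 to 13.4 for Snrpe, with a median of 11.3, each in the brightest probe set that the choice rested on. Snrpn had 5.31. No detection calls were used, so the low values of Srsf12 and Snrpn cannot be separated from background, and signals of different probe sets do not rank genes by abundance. The members varied less between mice than the average gene in both leukemia groups and more in wild-type thymi. Their median SD was 0.24 in Idh2R140Q/NHD13 spleens, 0.15 in SCL/LMO1 thymi and 0.29 in wild-type thymi, against 0.30, 0.19 and 0.21 over all genes.

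**Figure D1:**
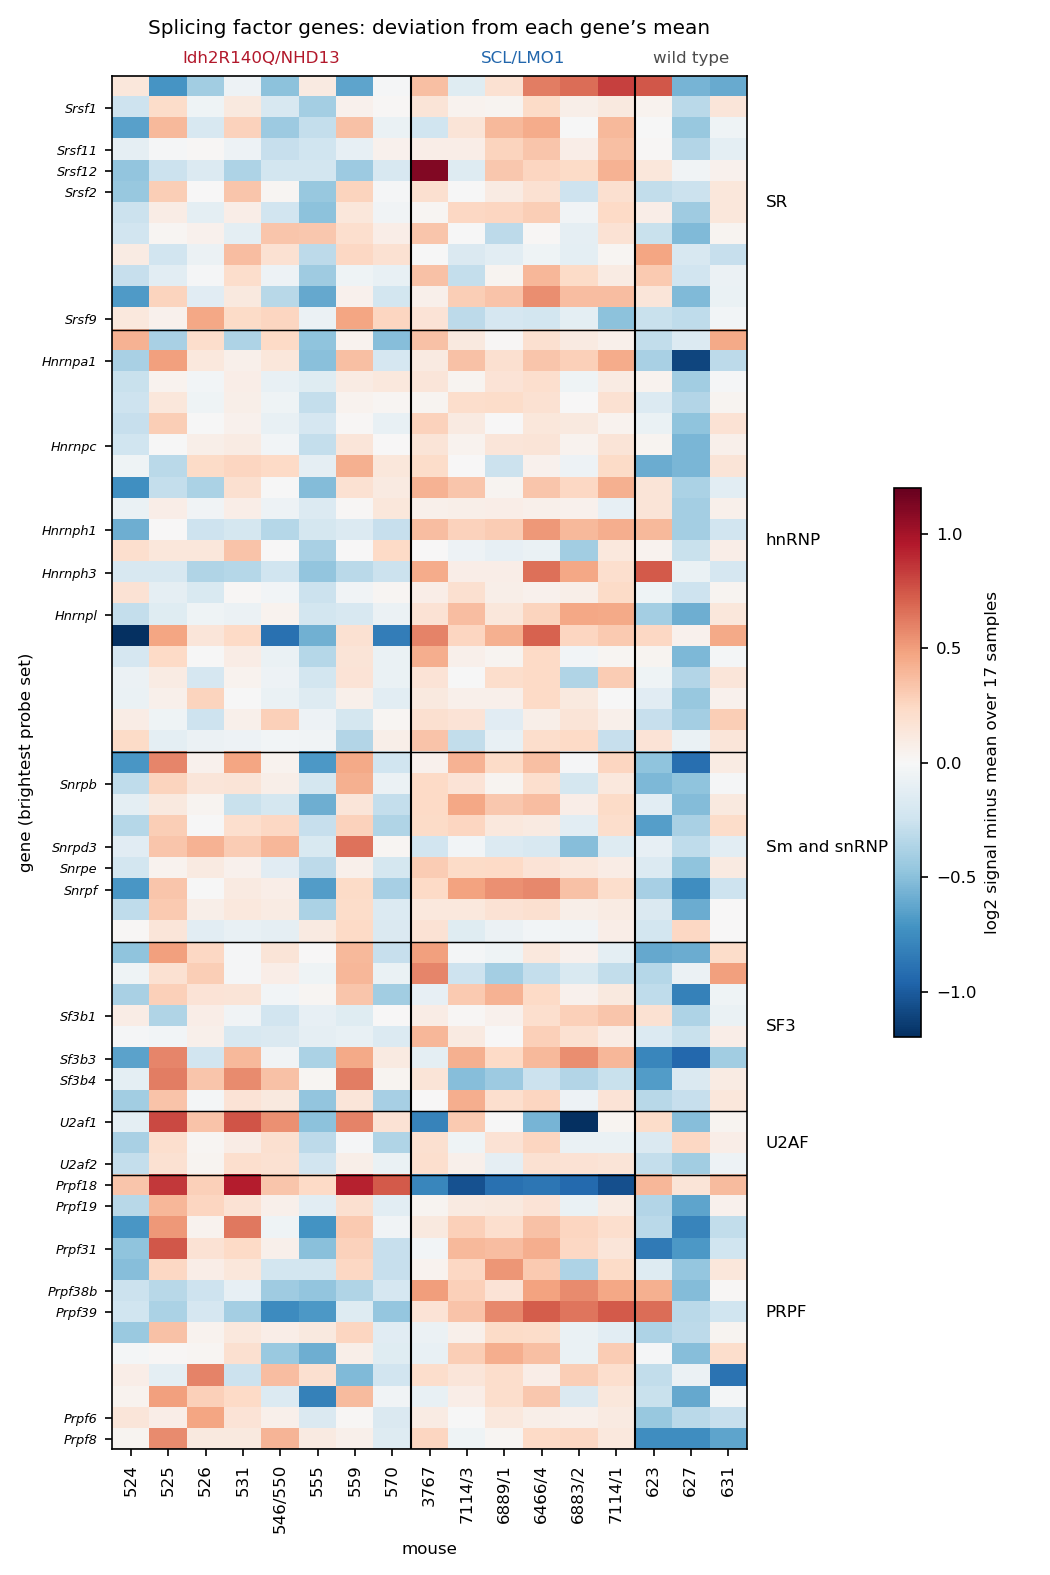
Signal of the 65 splicing factor genes (rows, by family) in 17 samples (columns, labelled by mouse), shown as log2 signal minus the mean of that gene over the 17 samples; the colour scale ends at 1.2 on either side, and 26 genes are labelled. Prpf18 is low in all 6 SCL/LMO1 mice, Prpf8 is low in all 3 wild-type mice, and wild-type mouse 627 is low across many rows.

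Between the leukemias, the splicing factor genes that differed were mostly lower in Idh2R140Q/NHD13 spleens. Of the 65 genes, 14 were lower (21.5%, against 12.0% of all 20672 genes) and 4 were higher (6.15%, against 11.7% of all genes), by limma with Benjamini-Hochberg adjustment over all genes at an adjusted p under 0.05. The members were mostly bright, with 63 of 65 above the median signal of all genes. A filter on dim genes kept those above the 40th percentile of their array in at least 3 arrays. It left 13852 genes, of which 17.7% were lower and 16.4% higher, and 63 of the 65 members. Srsf12 was removed, and the call of Snrpe was lost (limma adjusted p = 0.058). Both were among the 14 lower genes, so against these brighter genes the excess of lower members was smaller than against all genes. The median log2 fold change was -0.15 over the members and 0.03 over all genes. Below 0 lay 52 of 65 members, against 9490 of 20672 genes. In the brightest probe sets the changes were small: only Prpf18 differed by 2-fold or more. Some other probe sets of the members, described below, differed by more than 2-fold. In 8 genes (12.3%, against 8.69% of all genes) the 2 groups did not overlap at all, and all 8 passed the test.

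Prpf18, a factor of the second catalytic step of splicing, gave the largest difference among the brightest probe sets. In Idh2R140Q/NHD13 spleens its lowest, median and highest signals were 8.91, 9.21 and 9.61, and in SCL/LMO1 thymi they were 7.62, 7.76 and 7.89. The wild-type thymi had 9.07, 8.83 and 9.05. Every SCL/LMO1 mouse thus lay below every mouse of both other groups. The log2 fold change was 1.51 (SE 0.13, limma adjusted p = 7.17e-07) for Idh2R140Q/NHD13 minus SCL/LMO1, which placed Prpf18 at rank 66 of 20672 genes by p. It was -1.24 (SE 0.16, limma adjusted p = 0.000313) for SCL/LMO1 minus wild type and 0.27 (SE 0.16, limma adjusted p = 0.242) for Idh2R140Q/NHD13 minus wild type. Prpf18 is the only gene of the 65 called lower in SCL/LMO1 than in wild-type thymi, and it is read by a single probe set. Of its measured neighbours on the chromosome, Frmd4a on one side had log2 fold changes of 1.92 (adjusted p = 0.00103), 1.65 (adjusted p = 0.0195) and -0.26 (adjusted p = 0.761) in the 3 comparisons, and Bend7 on the other side had 0.07, 0.05 and -0.01. Farther out, Sephs1 had -0.48 (adjusted p = 0.0051), 0.23 (adjusted p = 0.244) and 0.71 (adjusted p = 0.00554), and Phyh had 0.85 (adjusted p = 0.274), -1.50 (adjusted p = 0.124) and -2.35 (adjusted p = 0.0386), while Fam107b passed the test in none. Phyh was thus, like Prpf18, lower in SCL/LMO1 than in wild-type thymi.

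Of the 13 PRPF genes, 15.4% were lower in Idh2R140Q/NHD13 spleens than in SCL/LMO1 thymi (12.0% of all genes) and 7.69% higher (11.7% of all genes). The lower ones were Prpf39, a partner of the U1 snRNP, and Prpf38b, a relative of the tri-snRNP factor Prpf38a. Prpf39 had a lowest, median and highest signal of 8.93, 9.29 and 9.53 in Idh2R140Q/NHD13 spleens and of 9.85, 10.29 and 10.42 in SCL/LMO1 thymi, without overlap. It was 1.93-fold lower (log2 fold change -0.95, SE 0.15, limma adjusted p = 0.000364), and its other 2 probe sets, with -0.68 and -1.19, were lower too. Prpf38b had 9.99, 10.17 and 10.37 in Idh2R140Q/NHD13 spleens against 10.63, 10.94 and 11.03 in SCL/LMO1 thymi, again without overlap (log2 fold change -0.71, SE 0.12, limma adjusted p = 0.000467). In wild-type thymi, mouse 623 had 10.35 for Prpf39 and 10.89 for Prpf38b, within the SCL/LMO1 range of each gene. Mice 627 and 631 had 9.36 and 9.44 for Prpf39, within the Idh2R140Q/NHD13 range. For Prpf38b mouse 627 had 9.94, below all Idh2R140Q/NHD13 mice, and mouse 631 had 10.48, between the 2 leukemia groups.

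Among the hnRNP genes 4 of 20 were lower in Idh2R140Q/NHD13 spleens than in SCL/LMO1 thymi, against 12.0% of all genes. None was higher, against 11.7% of all genes. A log2 fold change below 0 was found in 18 of 20, against 9490 of 20672 genes. Hnrnph1 and Hnrnph3 encode proteins that bind runs of G. Hnrnph1 had a lowest, median and highest signal of 12.44, 12.79 and 13.03 in Idh2R140Q/NHD13 spleens and of 13.3, 13.4 and 13.54 in SCL/LMO1 thymi (log2 fold change -0.64, SE 0.11, limma adjusted p = 0.000637). Hnrnph3 had 9.46, 9.64 and 9.74 against 10.01, 10.26 and 10.59 (log2 fold change -0.62, SE 0.13, limma adjusted p = 0.00317). The groups did not overlap for either gene, while their relative Hnrnph2 differed by 0.17 and Hnrnpf by -0.04, neither past the test. Hnrnpl, which binds CA repeats, was also lower without overlap, with 10.57 to 10.9 in Idh2R140Q/NHD13 spleens and 11 to 11.32 in SCL/LMO1 thymi (log2 fold change -0.44, SE 0.1, limma adjusted p = 0.00535). With the mean of its 2 probe sets its limma adjusted p was 0.064. Hnrnpdl had -0.48 (SE 0.15, limma adjusted p = 0.0288) with overlapping groups, and its call was lost under 5 of 28 other settings, with 0.062 without SCL/LMO1 mouse 7114/1. Hnrnpc, which binds tracts of U and is read by the brightest hnRNP probe set, had -0.14 and did not pass the test (limma adjusted p = 0.32).

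Hnrnpll, the regulator of the CD45 exon switch in T cells, varied most of all members within Idh2R140Q/NHD13 spleens. Its values there were 9.01 in mouse 524, 10.16 in 546/550, 10.23 in 570, 10.48 in 555, 11.2 in 526, 11.24 in 559, 11.29 in 531 and 11.53 in 525. The SCL/LMO1 values lay between 11.31 and 11.76, so 7 of 8 Idh2R140Q/NHD13 mice were below all of them, and the wild-type values were 11.3, 11.11 and 11.51. The log2 fold change between the leukemias was -0.84, with a 95% interval of -1.5 to -0.17, and it did not pass the test (SE 0.31, limma adjusted p = 0.0648).

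Of the 12 SR protein genes, 4 were lower in Idh2R140Q/NHD13 spleens than in SCL/LMO1 thymi (33.3%, against 12.0% of all genes). Only 1 was higher (8.33%, against 11.7% of all genes). Srsf11, an SR-related protein, had 11.52 to 11.85 in Idh2R140Q/NHD13 spleens and 11.88 to 12.16 in SCL/LMO1 thymi, close but without overlap (log2 fold change -0.30, SE 0.08, limma adjusted p = 0.0138). Srsf7, which also serves mRNA export, had -0.53 (SE 0.15, limma adjusted p = 0.0203) and Pnisr, listed in the annotation under its older symbol Sfrs18, had -0.68 (SE 0.22, limma adjusted p = 0.0383), both with overlapping groups. The call of Pnisr was lost under 9 of 28 other settings, among them mice 7114 as a random block (adjusted p = 0.071) and 8 fits without 1 mouse, and that of Srsf7 without SCL/LMO1 mouse 6466/4 (0.052). Srsf12 had -0.66 (SE 0.14, limma adjusted p = 0.00295), with signals of 3.72 to 4.03 in Idh2R140Q/NHD13 spleens and 4.04 to 5.3 in SCL/LMO1 thymi, on the dimmest probe set of all members. The filter on dim genes removed Srsf12. Srsf9 went the other way. Its lowest, median and highest signals were 11.21, 11.52 and 11.75 in Idh2R140Q/NHD13 spleens and 10.79, 11.07 and 11.44 in SCL/LMO1 thymi, where only mouse 3767 lay above 11.16 (log2 fold change 0.42, SE 0.11, limma adjusted p = 0.00944). The abundant exon-enhancer binding proteins did not pass the test: Srsf1 had -0.17, with a 95% interval of -0.38 to 0.05, and Srsf2, a gene mutated in human myeloid neoplasms, had -0.07, with an interval of -0.36 to 0.23.

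The snRNP proteins moved in both directions, with 33.3% lower (12.0% of all genes) and 11.1% higher (11.7% of all genes) between the leukemias. Of 9 genes, Snrpf (-0.53, SE 0.17, limma adjusted p = 0.0291) and Snrpe (-0.27, SE 0.09, limma adjusted p = 0.0477), both members of the Sm ring, and Snrpb2, a U2 snRNP protein (-0.43, SE 0.12, limma adjusted p = 0.0177), were lower. The call of Snrpe was lost under 17 of 28 other settings, among them quantile normalization (adjusted p = 0.067), array medians centred (0.067) and mice 7114 as a random block (0.062), and that of Snrpf under 6, with 0.065 without SCL/LMO1 mouse 6466/4. Snrpd3, which sits in the same ring, was higher (0.44, SE 0.13, limma adjusted p = 0.0176), with 11.79 to 12.63 in Idh2R140Q/NHD13 spleens and 11.46 to 11.94 in SCL/LMO1 thymi. Snrpf varied within Idh2R140Q/NHD13 spleens: mice 524 and 555 had 10.45 and 10.47, mouse 570 had 10.75, and the other 5 had 11.14 to 11.48. The SCL/LMO1 values were 11.36 to 11.72. Snrpb, another protein of the ring, had -0.03 between the leukemias and 0.41 (limma adjusted p = 0.0789) and 0.44 (limma adjusted p = 0.0918) in Idh2R140Q/NHD13 and SCL/LMO1 against wild type.

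Of the 8 SF3 genes, 12.5% were lower and 12.5% higher, near the 12.0% and 11.7% of all genes. Sf3b2 was lower (-0.27, SE 0.08, limma adjusted p = 0.0176) and Sf3b4 higher (0.58, SE 0.15, limma adjusted p = 0.0115). Both are subunits of SF3b, the part of the U2 snRNP that holds the branch site. Sf3b4 had a lowest, median and highest signal of 10.17, 10.63 and 10.9 in Idh2R140Q/NHD13 spleens and of 9.78, 9.98 and 10.44 in SCL/LMO1 thymi, where mouse 3767 alone exceeded 10.03. Sf3b1, the subunit mutated in human myelodysplasia, had -0.25, with a 95% interval of -0.45 to -0.05, and missed the threshold (SE 0.1, limma adjusted p = 0.0728).

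None of the 3 U2AF genes passed the test. U2af1, the small subunit that reads the AG at the end of the intron, had the largest difference of the 3, 0.72 with a 95% interval of 0.16 to 1.27 (SE 0.26, limma adjusted p = 0.0597). It was the most variable member in SCL/LMO1 thymi, with 10.37 in mouse 6883/2, 10.9 in 3767, 11.15 in 6466/4, 11.7 in 6889/1, 11.74 in 7114/1 and 12.02 in 7114/3, an SD of 0.62. In Idh2R140Q/NHD13 spleens its lowest, median and highest signals were 11.21, 12.15 and 12.5, and the wild-type thymi had 11.92, 11.19 and 11.74. The partner subunit U2af2, which binds the pyrimidine tract, differed by -0.10, with an interval of -0.3 to 0.1.

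**Figure D2:**
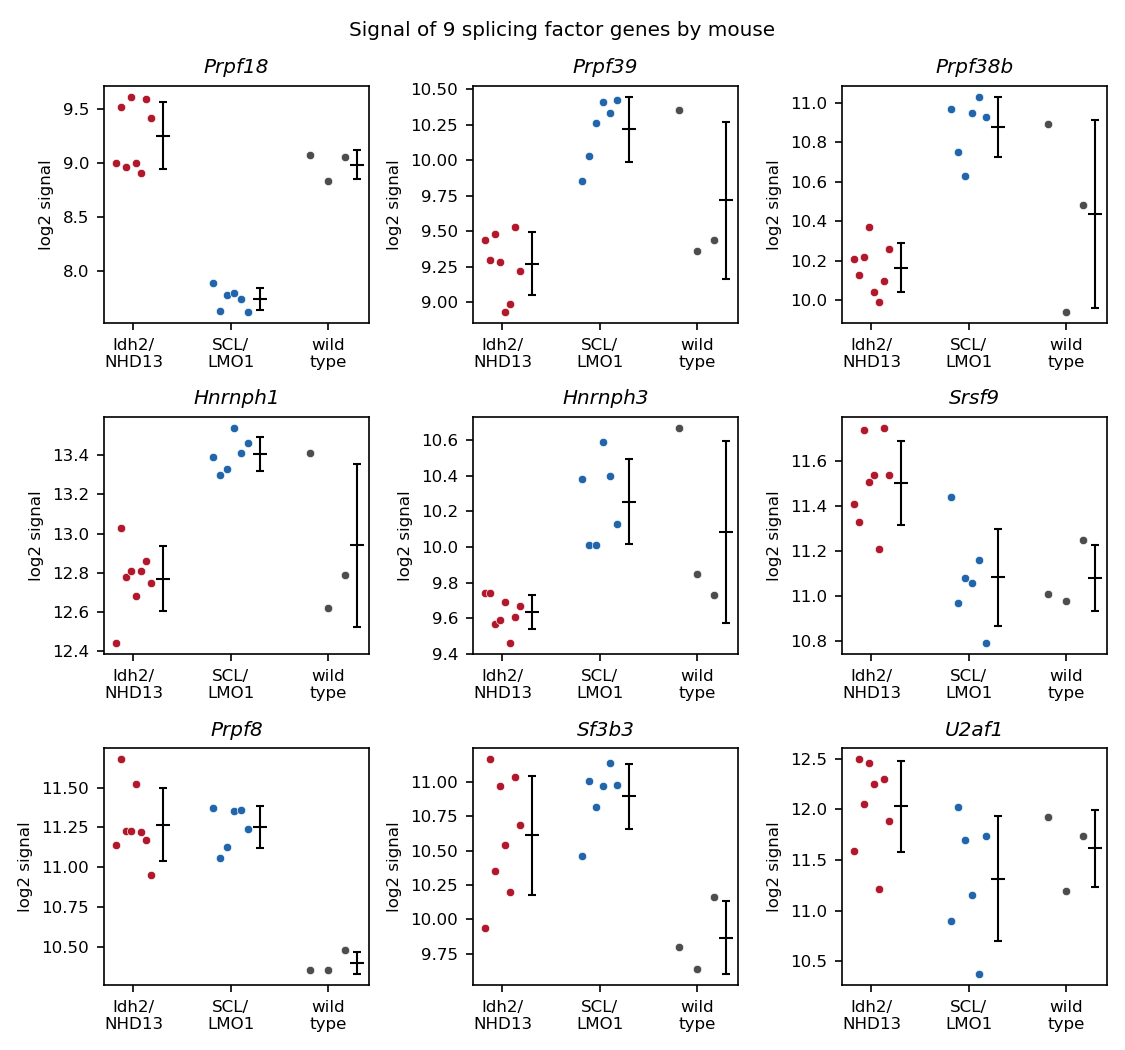
Log2 signal of 9 splicing factor genes in each mouse of the 3 groups; the black bar and whiskers to the right of each group give its mean and SD. Prpf18 is low in SCL/LMO1 thymi (7.62 to 7.89), Prpf8 is low in wild-type thymi (10.36 to 10.48), and for Prpf39, Hnrnph1 and Hnrnph3 wild-type mouse 623 lies with the SCL/LMO1 mice while the other 2 wild-type mice lie lower.

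The position of the wild-type mice differed for the 14 genes that were lower in Idh2R140Q/NHD13 spleens than in SCL/LMO1 thymi. Mouse 623 lay at or above the lowest SCL/LMO1 value in 8 of the 14 genes, mouse 631 in 5 and mouse 627 in 1. Hnrnph3, for example, had 10.67 in mouse 623, above all SCL/LMO1 mice, and 9.85 and 9.73 in mice 627 and 631. Pnisr had 11.35 in mouse 623 and no more than 10.04 in mice 627 and 631, the widest spread of any member in wild-type thymi (SD 0.77). Of the 14 genes, Hnrnpl, Snrpf and Srsf11 were called higher in SCL/LMO1 than in wild-type thymi, calls that were lost without mouse 627. In its brightest probe set, none of the 14 was called lower in Idh2R140Q/NHD13 spleens than in wild-type thymi. Among their other probe sets, 2 of Prpf38b, 2 of Pnisr and 1 of Prpf39 were called lower in that comparison. Of the probe sets of Sf3b2, 1 was called lower and 1 higher. With 3 wild-type mice, whether the genes other than Hnrnpl, Snrpf and Srsf11 were low in one leukemia or high in the other was not resolved.

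The promoters of 56 of the 65 genes are in the RefSeq table for assembly GRCm38.p6, with 76 listed starts, each covering 250 bases before to 50 bases after the start. They had a median GC content of 60.3%, against 52.7% for all 32851 promoters, and a median ratio of observed to expected CpG of 0.92, against 0.38. Counting a match on either strand, the ETS core CCGGAAG was in 31.6% of the members' promoters and 8.86% of all, the CRE letters TGACGT in 22.4% and 7.51%, the GC box GGGCGG in 63.2% and 35.7% and the CCAAT box in 38 of 76 (37.4% of all). TATAAA was in 7.89% and 13.6% and the GATA core AGATAA in 5.26% and 11.2%. The E-box CACGTG was in 11.8% and 7.15% and the YY1 core AAGATGGCG in 2.63% and 1.4%. The shares were not adjusted for base composition, which differs between the members' promoters and all promoters.

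Shown here are the promoters of 2 genes that were lower in Idh2R140Q/NHD13 spleens than in SCL/LMO1 thymi, Prpf39 (chr12:65036084-65036383, plus strand) and Prpf38b (chr3:108911680-108911979, minus strand), of Srsf9 (chr5:115326927-115327226, plus strand), which was higher, and of Prpf8 (chr11:75486527-75486826, plus strand), which was higher in both leukemias than in wild-type thymi. Sequences are from RefSeq for GRCm38.p6, 5′ to 3′ on the strand of the gene, and capitals mark matches to the motifs above on either strand.
Prpf39: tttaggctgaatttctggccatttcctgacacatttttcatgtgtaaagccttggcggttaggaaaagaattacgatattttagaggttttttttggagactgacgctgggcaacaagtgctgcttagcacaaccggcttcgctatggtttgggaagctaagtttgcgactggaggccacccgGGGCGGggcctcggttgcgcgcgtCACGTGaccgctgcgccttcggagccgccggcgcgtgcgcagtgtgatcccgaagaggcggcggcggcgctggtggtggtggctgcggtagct
Prpf38b: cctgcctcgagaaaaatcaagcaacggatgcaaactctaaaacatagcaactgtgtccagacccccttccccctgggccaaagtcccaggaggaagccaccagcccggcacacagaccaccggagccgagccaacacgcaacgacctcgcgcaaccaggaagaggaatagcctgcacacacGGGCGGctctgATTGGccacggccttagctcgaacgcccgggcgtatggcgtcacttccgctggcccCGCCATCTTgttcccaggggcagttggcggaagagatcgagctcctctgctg
Srsf9: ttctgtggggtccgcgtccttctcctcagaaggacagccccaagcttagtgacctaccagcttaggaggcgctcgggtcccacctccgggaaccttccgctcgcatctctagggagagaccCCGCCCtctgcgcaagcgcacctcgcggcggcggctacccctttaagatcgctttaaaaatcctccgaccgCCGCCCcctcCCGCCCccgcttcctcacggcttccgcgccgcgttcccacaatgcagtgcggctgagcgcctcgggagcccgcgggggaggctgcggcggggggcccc
Prpf8: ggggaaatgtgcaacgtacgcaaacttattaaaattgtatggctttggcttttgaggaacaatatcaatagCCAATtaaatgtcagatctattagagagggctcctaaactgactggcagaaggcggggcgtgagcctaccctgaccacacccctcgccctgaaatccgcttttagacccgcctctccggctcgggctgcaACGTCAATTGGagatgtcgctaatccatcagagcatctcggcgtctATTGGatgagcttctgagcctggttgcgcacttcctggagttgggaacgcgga
Prpf39 and Prpf38b, both lower in Idh2R140Q/NHD13 spleens than in SCL/LMO1 thymi, each held a GC box, at -67 and -69 from the start. Prpf39 held an E-box at -43, and Prpf38b held a CCAAT box at -58 and the YY1 core at -2. Srsf9 held 3 GC boxes, at -129, -58 and -48, and no other motif searched. Prpf8 held no GC box but 3 CCAAT boxes, at -179, -43 and -3, and its CRE letters at -49 lie directly before the second CCAAT box. A match is only a run of letters, and none of these data bear on binding there.

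Against wild-type thymi, the splicing factor genes that passed the test in Idh2R140Q/NHD13 spleens were all higher. They were 5 of 65 (7.69%, against 9.08% of all genes), and 0 were lower (against 8.31% of all genes), with 16 of 65 at an unadjusted limma p under 0.05 (24.6%, against 34.0% of all genes). The median log2 fold change of 0.12 was near that of all genes, 0.10. The groups did not overlap for 3 members (4.62%, against 12.1% of all genes), 2 of them called. Leaving out 1 mouse gave between 1 call, without wild-type mouse 623, and 13 calls, without wild-type mouse 631, with 2 without wild-type mouse 627 and 10 without Idh2R140Q/NHD13 mouse 524 or 555. Over all genes, 2.57% were higher and 4.11% lower without mouse 623, 4.23% and 5.34% without mouse 627, 8.31% and 7.79% without mouse 631, 11.2% and 9.81% without mouse 524, and 14.5% and 11.1% without mouse 555. The comparisons of both leukemias with wild-type thymi share the same 3 controls.

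Prpf8, the core protein of the U5 snRNP and of the catalytic centre, was higher in both leukemias. Its lowest, median and highest signals were 10.95, 11.22 and 11.68 in Idh2R140Q/NHD13 spleens and 11.06, 11.29 and 11.37 in SCL/LMO1 thymi, and the wild-type thymi had 10.36, 10.36 and 10.48. No leukemia overlapped the controls. The log2 fold changes were 0.87 (SE 0.13, limma adjusted p = 0.000342) for Idh2R140Q/NHD13 minus wild type and 0.85 (SE 0.13, limma adjusted p = 0.000982) for SCL/LMO1 minus wild type, and 0.02, with a 95% interval of -0.2 to 0.23, between the leukemias. Prpf8 was also the least variable member in wild-type thymi, with an SD of 0.07.

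Prpf6, which bridges the parts of the tri-snRNP, behaved alike, with 9.39 to 10.04 in Idh2R140Q/NHD13 spleens, 9.56 to 9.69 in SCL/LMO1 thymi and 9.11, 9.24 and 9.29 in wild-type thymi. The log2 fold changes against wild type were 0.43 (SE 0.11, limma adjusted p = 0.0165) for Idh2R140Q/NHD13 and 0.43 (SE 0.12, limma adjusted p = 0.0263) for SCL/LMO1. Sf3b3, the SF3b subunit with the largest change against wild type, had 9.94 to 11.17 in Idh2R140Q/NHD13 spleens, 10.46 to 11.14 in SCL/LMO1 thymi and 9.8, 9.64 and 10.16 in wild-type thymi. Idh2R140Q/NHD13 mouse 524, with 9.94, lay among the wild-type mice, and the SCL/LMO1 mice lay above them all. The log2 fold changes of Sf3b3 were 0.74 (SE 0.23, limma adjusted p = 0.0364) and 1.03 (SE 0.24, limma adjusted p = 0.0124).

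Hnrnpa1, a repressor that binds splicing silencers, rose in both comparisons as well. It had 11.77 to 12.77 in Idh2R140Q/NHD13 spleens, 12.38 to 12.72 in SCL/LMO1 thymi and 11.89, 11.17 and 11.96 in wild-type thymi. Only the SCL/LMO1 mice cleared all controls, and the log2 fold changes were 0.61 (SE 0.2, limma adjusted p = 0.048) and 0.89 (SE 0.21, limma adjusted p = 0.0136). Srsf9 was higher in Idh2R140Q/NHD13 spleens than in wild-type thymi, whose 3 mice had 11.01, 10.98 and 11.25 (log2 fold change 0.42, SE 0.13, limma adjusted p = 0.0396), and differed by 0.00, with a 95% interval of -0.29 to 0.3, between SCL/LMO1 and wild type. Of these 5 calls against wild type in Idh2R140Q/NHD13 spleens, only that of Prpf8 held under all 28 other settings at this threshold. Those of Hnrnpa1, Sf3b3, Srsf9 and Prpf6 were lost without wild-type mouse 623 (adjusted p = 0.084, 0.14, 0.16 and 0.10) and without wild-type mouse 627 (0.28, 0.16, 0.15 and 0.052).

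In SCL/LMO1 thymi 8 of 65 members were higher than in wild-type thymi (12.3%, against 5.04% of all genes) and 1, Prpf18, was lower (1.54%, against 6.52% of all genes). With dim genes left out, 6.56% of the remaining genes were higher and 8.53% lower. The median log2 fold change was 0.31 over the members and 0.08 over all genes. Above 0 lay 56 of 65 members, against 12721 of 20672 genes. The groups did not overlap for 12 members (18.5%, against 20.9% of all genes), 8 of them called. The 8 genes come from 5 of the 6 families: Prpf8, Prpf6 and Prpf31 of the tri-snRNP, Sf3b3, Snrpf, Srsf11, Hnrnpa1 and Hnrnpl. Snrpf had 11.36 to 11.72 in SCL/LMO1 thymi and 10.75, 10.4 and 10.9 in wild-type thymi (log2 fold change 0.86, SE 0.22, limma adjusted p = 0.0182). Prpf31, a U4/U6 protein mutated in human retinitis pigmentosa, had 9.57 to 10.04 against 8.75, 8.91 and 9.36 (log2 fold change 0.86, SE 0.23, limma adjusted p = 0.0271). The groups did not overlap for either. Hnrnpl had 0.59 (SE 0.13, limma adjusted p = 0.0098), with wild-type mouse 631 at 11, equal to the lowest SCL/LMO1 mouse, and Srsf11 had 0.36 (SE 0.11, limma adjusted p = 0.0389), a call lost under 10 of 28 other settings.

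The size of this set depended on single wild-type mice. Without mouse 627, which had the lowest mean over all 65 genes, 2 genes were called, Prpf8 higher and Prpf18 lower, and without mouse 631, which had the highest, 20 were called, 19 of them higher. Over all genes, 1.03% were higher and 2.67% lower without mouse 627, and 6.12% and 7.52% without mouse 631. The median of the members was 0.21 and 0.39 in these fits, against 0.08 and 0.11 over all genes. Without mouse 623, 8 genes were called, but Prpf31, Prpf6, Hnrnpl, Snrpf and Sf3b3 were not among them (adjusted p = 0.13, 0.12, 0.06, 0.056 and 0.055).

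**Figure D3:**
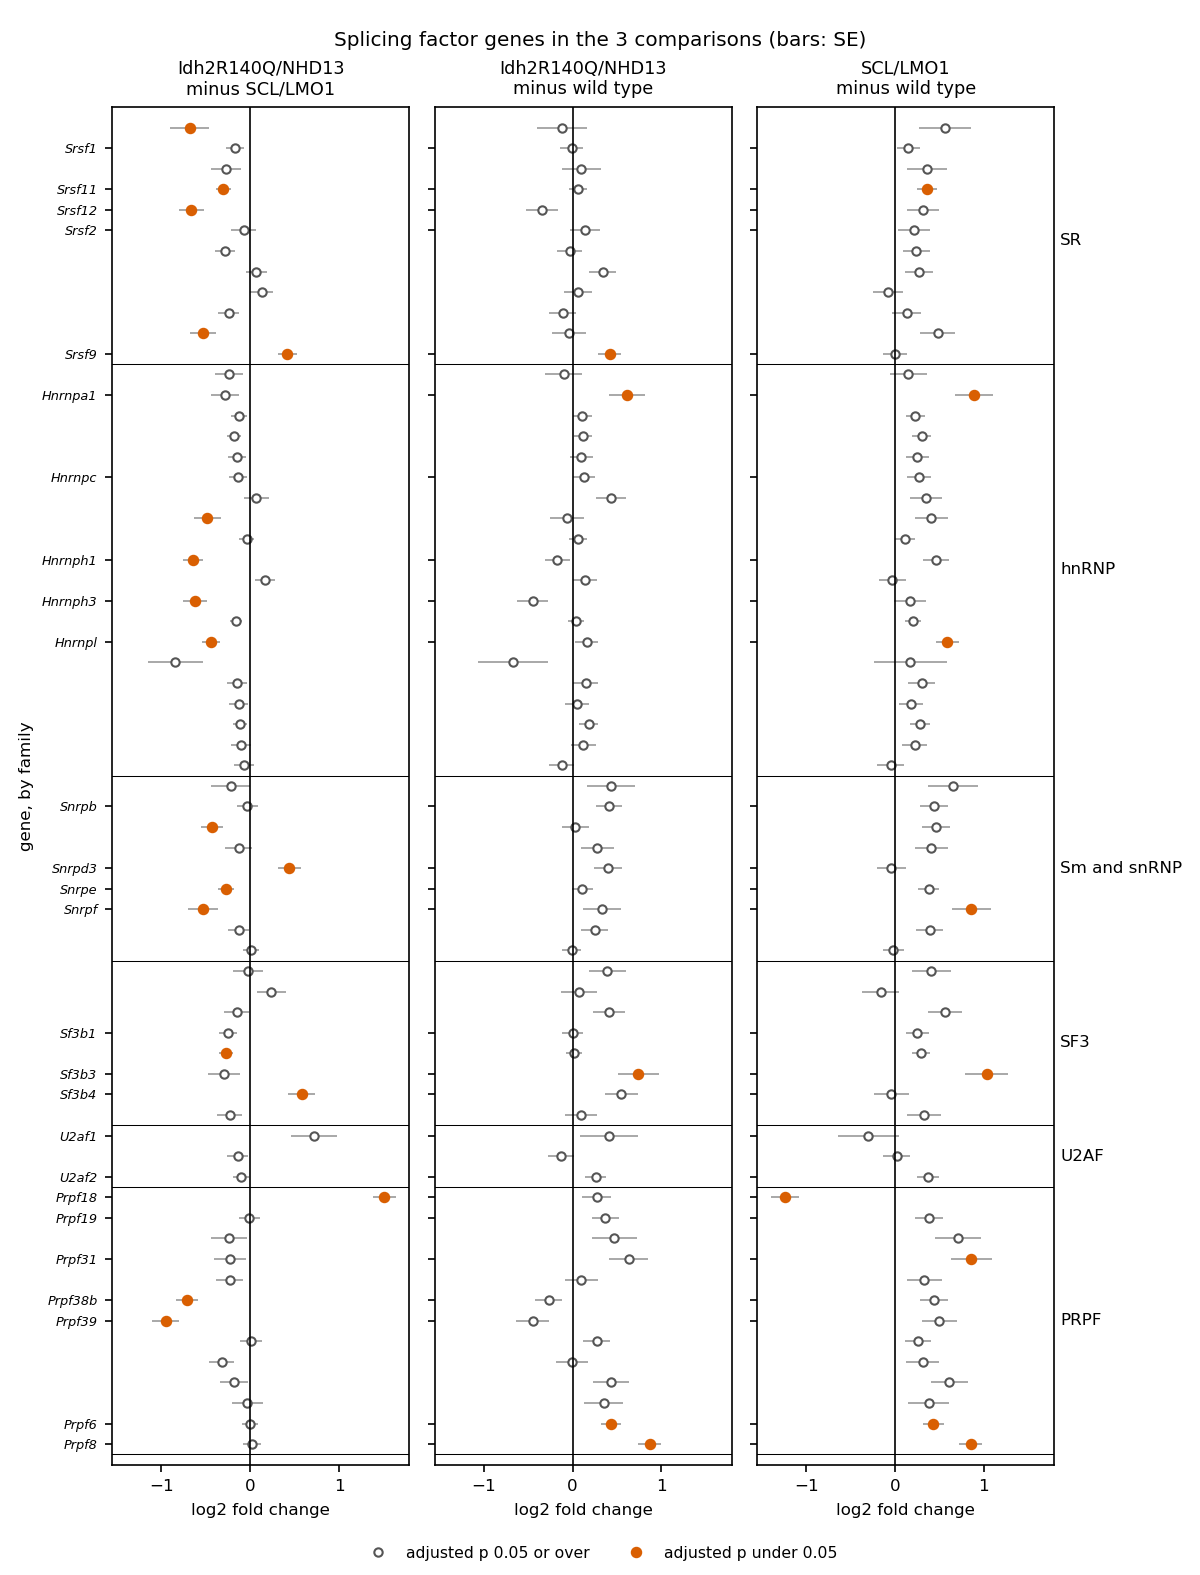
Log2 fold change of each of the 65 splicing factor genes (rows, by family) in the 3 comparisons, with the standard error of the limma fit as bars; filled points passed an adjusted p under 0.05 over all genes, and 26 genes are labelled. In Idh2R140Q/NHD13 minus SCL/LMO1, 52 of 65 points lie left of 0, and in SCL/LMO1 minus wild type 56 of 65 lie right of 0. Of all 20672 genes, 9490 lie below 0 in the former and 12721 above 0 in the latter.

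The mean over all 65 genes differed little and varied by mouse. It was 11.16 ± 0.16 in Idh2R140Q/NHD13 spleens (SD, n = 8), 11.31 ± 0.06 in SCL/LMO1 thymi (SD, n = 6) and 11.01 ± 0.20 in wild-type thymi (SD, n = 3). Within Idh2R140Q/NHD13 spleens the lowest were mice 524, with 10.95, and 555, with 10.92, and within wild-type thymi mouse 627 had 10.79, mouse 623 had 11.07 and mouse 631 had 11.18. The mean of 20 cell cycle genes was lowest in the same mice, 10.15 in mouse 524 and 10.63 in mouse 555 against 11.03 to 11.49 in the other Idh2R140Q/NHD13 mice, and 10.29 in wild-type mouse 627. The mean of 12 Myc and ribosome biogenesis genes was 10.4 in mouse 524 and 10.47 in mouse 555, and it ranged over 10.4 to 11.68, 10.58 to 11.12 and 10.05 to 10.53 in Idh2R140Q/NHD13, SCL/LMO1 and wild-type samples. Of those 12 genes, 7 were higher in Idh2R140Q/NHD13 spleens and 5 in SCL/LMO1 thymi than in wild-type thymi. The part of proliferation in the members' differences was not tested. Without mice 524 and 555 together, 16 members instead of 5 were called in Idh2R140Q/NHD13 minus wild type, all higher, and 19 instead of 9 in SCL/LMO1 minus wild type, 18 of them higher. Calls over all genes also became more frequent in these fits, with 3718 higher and 2693 lower in Idh2R140Q/NHD13 minus wild type, against 1878 and 1718 with all mice, and with 1603 and 1821 in SCL/LMO1 minus wild type, against 1042 and 1348. Between the leukemias the count of members was 16, with 5 higher and 11 lower, against 14.8% and 14.0% of all genes.

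**Figure D4:**
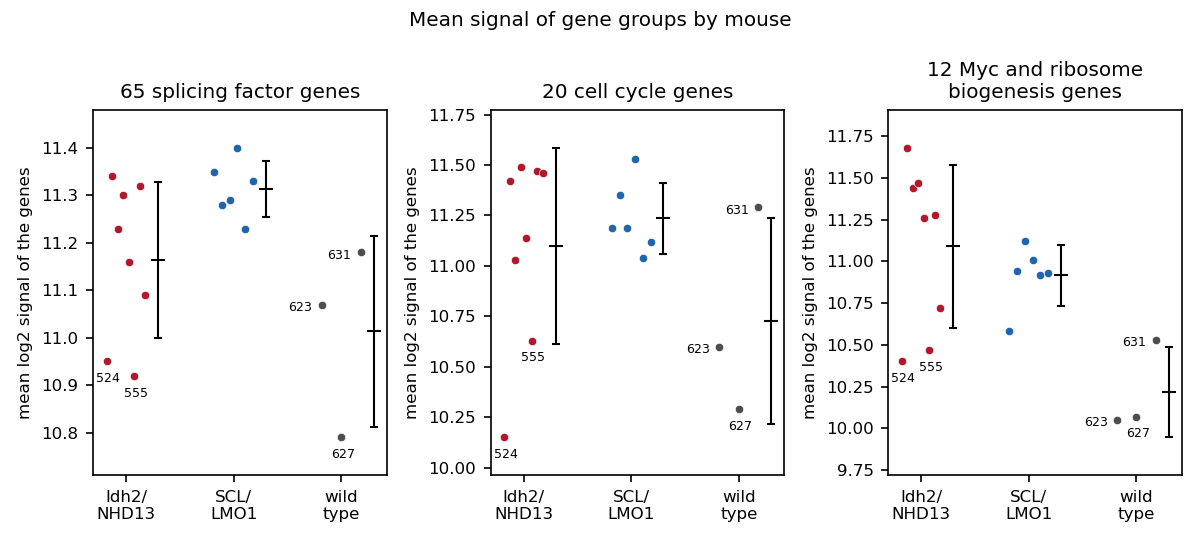
Mean log2 signal of the 65 splicing factor genes, of 20 cell cycle genes and of 12 Myc and ribosome biogenesis genes in each mouse, with the mean and SD of each group at its right; Idh2R140Q/NHD13 mice 524 and 555 and the wild-type mice are labelled. Mice 524 and 555 are the lowest Idh2R140Q/NHD13 mice in all 3 panels, and wild-type mouse 627 is the lowest of all mice for the splicing factor genes, with 10.79.

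Probe sets other than the brightest gave a sharper contrast between the leukemias. Of 121 such probe sets of the members, 43 were lower in Idh2R140Q/NHD13 spleens than in SCL/LMO1 thymi (35.5%, against 14.3% of 17417 such probe sets of all genes) and 3 were higher (2.48%, against 9.9%), by the same limma test adjusted over 38089 probe sets. Their median was -0.22, against 0.01 over all such probe sets, and 92 of 121 had the sign of the brightest probe set of their gene. In Idh2R140Q/NHD13 minus wild type 7 were higher (5.79%, against 7.65%) and 10 lower (8.26%, against 8.23%). In SCL/LMO1 minus wild type 20 were higher (16.5%, against 5.24%) and 0 were lower (against 5.09%). Probe sets of a gene share its transcripts, so these counts are no independent replicate of the gene counts.

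In 14 genes a further probe set lay more than 0.5 below the brightest one in the log2 fold change between the leukemias, 18 probe sets in all, and in 5 genes 1 probe set lay more than 0.5 above it. These were picked for their difference, and their values are given as a description. Probe sets of a gene can read different transcript ends or intron-retaining forms, and where each one lies on its gene was not examined here.

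Sf3b2 showed the widest gap. Its brightest probe set, 1438637_x_at, had 11.32 to 11.57 in Idh2R140Q/NHD13 spleens, 11.52 to 11.91 in SCL/LMO1 thymi and 11.25 to 11.59 in wild-type thymi. Its probe set 1429362_a_at had 7.3 to 9.28 in Idh2R140Q/NHD13 spleens, 10.09 to 10.66 in SCL/LMO1 thymi and 9.88, 10.45 and 10.56 in wild-type thymi. The 2 probe sets thus differed by -0.27 and by -2.02 (SE 0.25) between the leukemias, and the second was low in all 8 Idh2R140Q/NHD13 mice against both other groups. Hnrnpr, an RNA-binding protein of the hnRNP Q family, behaved alike: its brightest probe set differed by -0.13 and 1438807_at by -1.57 (SE 0.18), with 7.03 to 7.88 in Idh2R140Q/NHD13 spleens, 8.65 to 9.5 in SCL/LMO1 thymi and 9.24, 8.12 and 8.88 in wild-type thymi.

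Srsf3, a small SR protein, had -0.28 in its brightest probe set and -1.08 (SE 0.15) in 1438215_at, where Idh2R140Q/NHD13 spleens had 6.88 to 7.72, SCL/LMO1 thymi 8.06 to 8.59 and wild-type thymi 8.48, 7.91 and 8.33. Sf3b1 had -0.25 in its brightest probe set and -0.97 (SE 0.11) in 1418562_at, with 10.47 to 11.01 in Idh2R140Q/NHD13 spleens, 11.39 to 11.98 in SCL/LMO1 thymi and 11.85, 11.35 and 11.53 in wild-type thymi. For these 4 probe sets of Sf3b2, Hnrnpr, Srsf3 and Sf3b1 no Idh2R140Q/NHD13 mouse overlapped either other group, and the log2 fold changes against wild type were -1.94, -1.24, -0.95 and -0.83.

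Prpf4b, a kinase of the tri-snRNP, differed: 1455696_a_at had -1.25 (SE 0.19) between the leukemias and -0.03 in its brightest probe set, but in wild-type thymi mouse 623 had 11.55, within the SCL/LMO1 range of 11.38 to 12.1, while mice 627 and 631 had 10.4 and 10.56, within the Idh2R140Q/NHD13 range of 9.92 to 11.07. Over the 18 probe sets, wild-type mouse 623 lay at or above the lowest SCL/LMO1 value in 15, mouse 631 in 8 and mouse 627 in 3.

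The reverse was seen in Prpf19, the ubiquitin ligase of the Prp19 complex. Its brightest probe set differed by -0.01 and 1460633_at by 1.48 (SE 0.25) between the leukemias, with 9.54 to 10.61 in Idh2R140Q/NHD13 spleens, 7.64 to 9.09 in SCL/LMO1 thymi and 8.7, 8.62 and 9.47 in wild-type thymi. Hnrnpa1 had -0.28 in its brightest probe set and 0.95 (SE 0.25) in 1455740_at, with 7.34 to 8.95 in Idh2R140Q/NHD13 spleens, 7.08 to 8.18 in SCL/LMO1 thymi and 7.05, 6.48 and 6.65 in wild-type thymi. The brightest probe sets of Sf3b2, Prpf19 and Hnrnpa1 are among the 6 brightest ones with the suffix _x, which marks probes that may also read related sequences.

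**Figure D5:**
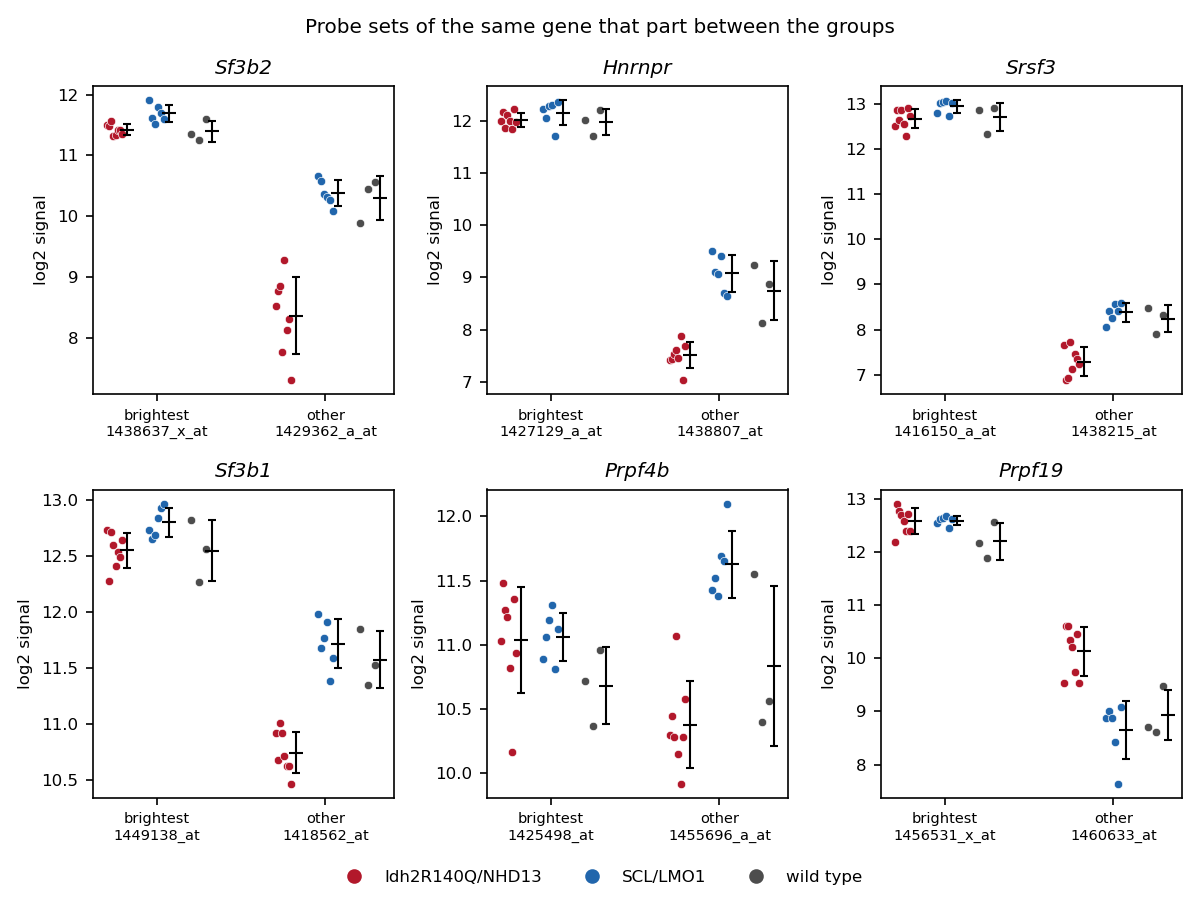
Log2 signal in each mouse for the brightest probe set (left) and another probe set (right) of 6 splicing factor genes, in the order Idh2R140Q/NHD13, SCL/LMO1 and wild type within each; black bars and whiskers give the mean and SD of each group. The other probe sets of Sf3b2, Hnrnpr, Srsf3 and Sf3b1 are lower in all Idh2R140Q/NHD13 mice than in all mice of both other groups, and that of Prpf19 is higher.

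Splicing genes outside these families were also more often lower than higher between the leukemias. Of 133 measured genes in 10 lists, 41 were lower and 8 higher in Idh2R140Q/NHD13 spleens than in SCL/LMO1 thymi, with a median of -0.22. In Idh2R140Q/NHD13 minus wild type 13 were higher and 3 lower (median 0.14), and in SCL/LMO1 minus wild type 29 were higher and 1 lower (median 0.38). Over all genes, 12.0% were lower and 11.7% higher between the leukemias. In Idh2R140Q/NHD13 minus wild type 9.08% of all genes were higher and 8.31% lower, and in SCL/LMO1 minus wild type 5.04% and 6.52%.

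Of the kinases that phosphorylate SR proteins, 6 of 8 were lower in Idh2R140Q/NHD13 spleens than in SCL/LMO1 thymi and none was higher (against 12.0% and 11.7% of all genes). Srpk2 had a log2 fold change of -1.28 (SE 0.26, limma adjusted p = 0.00206), with 7.62 to 9.36 in Idh2R140Q/NHD13 spleens, 9.58 to 10.18 in SCL/LMO1 thymi and 9.96, 9.91 and 9.79 in wild-type thymi. Clk3 had -0.85 (SE 0.19, limma adjusted p = 0.00393), and both were also lower than in wild-type thymi, by -1.30 and -1.17. Srpk1 had -0.30 between the leukemias (limma adjusted p = 0.0479) and was higher than in wild-type thymi in both, by 0.55 in Idh2R140Q/NHD13 and 0.85 in SCL/LMO1.

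The counts that follow stand against 12.0% of all genes lower and 11.7% higher between the leukemias. Of the spliceosome helicases 5 of 9 were lower between the leukemias, led by Ddx39b (-0.92, SE 0.12, limma adjusted p = 3.68e-05), which loads the U2 snRNP and serves mRNA export. Of 10 minor spliceosome genes 5 were lower and 1 higher, with Snrnp48 at -0.86 and Zmat5 at -0.75, both proteins of the U11/U12 snRNP. Of 10 exon junction complex genes, 2 were lower, Pnn at -1.16 and Acin1 at -0.77, and 1 was higher, Srrm1 at 0.54. Of 34 other regulators 11 were lower, among them Ptbp2 at -1.04, a neural relative of the polypyrimidine tract binding protein, and 5 were higher, among them Raly at 1.11, a relative of Hnrnpc.

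Among the tri-snRNP proteins outside the rule, 6 of 10 were higher in SCL/LMO1 than in wild-type thymi (against 5.04% of all genes). In Idh2R140Q/NHD13, 3 of 10 were higher than in wild-type thymi (against 9.08% of all genes). Snrnp200, a U5 helicase, had 0.46 in Idh2R140Q/NHD13 and 0.58 in SCL/LMO1 against wild type, and Txnl4a, another U5 protein, had 0.71 and 0.70. Of 14 genes for Sm assembly and methylation, 4 and 3 were higher in these comparisons, among them Prmt5, the methyltransferase of Sm proteins, with 0.75 and 0.90. Between the leukemias 12.0% of all genes were lower. Among the U1 and U2 genes 2 of 11 were lower between the leukemias, Luc7l3 at -0.75 and Luc7l at -0.54, and among the LSm ring 1 of 10, Lsm3 at -0.52. Of 17 Prp19 complex and catalytic step genes 4 were lower between the leukemias, Cdc5l at -0.35 and Snw1 at -0.40 among them. Aqr of this list was higher in Idh2R140Q/NHD13 than in wild-type thymi, by 0.67, and Ppie was higher in SCL/LMO1 than in wild-type thymi, by 1.03.

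Among 8 members known from mutations in human leukemia or retinitis pigmentosa, none passed the test between the leukemias in its brightest probe set. Higher than in wild-type thymi were 2 in Idh2R140Q/NHD13 and 3 in SCL/LMO1 (against 9.08% and 5.04% of all genes). These are the PRPF genes Prpf8, Prpf6 and Prpf31 described above, and the brightest probe sets of Srsf2, Sf3b1 and U2af1 passed the test in no comparison. Of the 4 probe sets of Sf3b1, 3 were called lower between the leukemias, among them 1418562_at described above (limma adjusted p = 1.8e-05), which was also lower than in wild-type thymi (limma adjusted p = 0.00115).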

How the data were processed

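The samples were RNA from single mice hybridised to 1-colour arrays. The log2 values were deposited by the authors, already normalized; their method is not given in the sources used, and array medians lay between 5.89 and 6.01. No read depth applies, and precision is limited by how many arrays each group has. A table of 36 per-array columns that could not be tied to samples was not used.

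Of the probe sets, 38089 had 1 gene symbol, 6948 had none and 64 were controls. An Entrez identifier matched 35121 of them to the RefSeq gene table, which updated 1813 symbols. Each gene was represented by its brightest probe set over the 18 arrays. The arrays of mice 546 and 550 were averaged. One limma model (limma 3.58.1, R 4.3.3, Python 3.11.15) with 1 mean per group was fitted to all 20672 genes, and a second to all 38089 probe sets; p-values were adjusted by Benjamini-Hochberg over all features, with calls under 0.05. The code was tested on simulated data. P-values measure the spread between these mice, and the labels give no batch.

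The members and lists were chosen with earlier results of these data known. Genes were named where they had the largest non-overlapping changes, the smallest p or the brightest signal of their family, with Srsf2, Sf3b1, U2af1 and Prpf8 always, and up to 2 genes per list and comparison outside the families. Pnisr, Srsf7, Hnrnpdl, Hnrnpll, Hnrnph2, Hnrnpf, Snrpb2, Sf3b2, the neighbours of Prpf18 and the probe sets other than the brightest were chosen after their values were seen. Alternatives covered normalization, centring, a filter on dim genes, the mean of all probe sets, variance model, array weights, groups in the fit, the averaged pair, the shared number 7114 as a random block (correlation 0.578, a moment estimate, since duplicateCorrelation gave no value), a stricter threshold and leaving out mice.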

Additional observations from a re-analysis of the deposited data

Results flagged for a closer look

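In 130 groups of values of single members, the most extreme mouse was set against the others by Dixon's ratio. Chance passes this in about 1 in 20 groups, and 2 groups passed. That is fewer than this rate would give, so the 2 are listed only as a description. Hnrnpf had 13.18 in SCL/LMO1 mouse 7114/1, below the other 5 mice at 13.33 to 13.36. Sf3a2, a subunit of the U2 snRNP, had 11.8 in SCL/LMO1 mouse 3767, above the other 5 at 10.8 to 11.03. Neither gene was called in any comparison.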

How the results depend on the processing

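Between the leukemias, the count of called members, higher and lower together, stayed within 1.5 times of 18 under every setting but 1. That was the stricter threshold of 0.01, which gave 8, and the count was 13 to 19 when 1 mouse was left out. The total does not show the direction. Without mice 524 and 555, the share of lower members was nearer to that of all genes, as given above. At 0.05, 12 of the 18 genes were called under every other setting that tested them. Srsf12, 1 of the 12, was removed by the filter on dim genes and so was tested in 27 of 28 settings. With mice 546 and 550 kept apart, the counts in the 3 comparisons were 21, 7 and 11. Against wild type the counts were less stable. For Idh2R140Q/NHD13 minus wild type, 5 calls became 17 with array weights, 1 with only the 2 groups fitted, 3 without mice 555, 627 and 6889/1, 16 without mice 524 and 555, 1 at 0.01, and 1 to 13 with 1 mouse left out. For SCL/LMO1 minus wild type, 9 calls became 15 with array medians centred, 24 with array weights, 2 without mice 555, 627 and 6889/1, 19 without mice 524 and 555, 3 at 0.01, and 2 to 20 with 1 mouse left out. For the probe sets other than the brightest, leaving out 1 mouse gave 36 to 47 calls between the leukemias (46 with all mice), 9, without wild-type mouse 623, to 27, without mouse 555, in Idh2R140Q/NHD13 minus wild type (17 with all), and 3, without wild-type mouse 627, to 25 in SCL/LMO1 minus wild type (20 with all, and 11 or 12 without SCL/LMO1 mouse 7114/3, 6466/4, 6883/2 or 7114/1). The count for Idh2R140Q/NHD13 minus wild type was 34 with array weights and 33 without mice 524 and 555, and that for SCL/LMO1 minus wild type was 4 without mice 555, 627 and 6889/1. Leaving out mice 524 and 555, and all alternatives for these probe sets, were chosen after seeing the data. None of the called genes changed direction under any of these settings, and the causes were not tested. No paired analysis was possible because the groups share no replicate numbers. Signal over background could not be judged without detection calls, and 3 wild-type mice limit both comparisons with them.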
